A study of Mus musculus with 4 samples.

Results

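The regions described here are stretches of open chromatin whose midpoint lies more than 1 kb and up to 5 kb upstream of the nearest transcription start site (TSS) of a protein-coding gene, on the side that the gene is read away from, and outside every protein-coding gene body. They were found by position alone, on the GENCODE vM21 basic annotation of the mouse genome build mm10, and not by their reads. Of 121574 accessible regions, 2198 met this rule, which is 1.81% (exact 95% binomial interval 1.73 to 1.88), and they lay upstream of 1718 of 21851 protein-coding genes (7.86%). They held 40852 of the 2297894 reads in regions, or 1.78%. The 4 deposited samples were lanes 1 to 4 of untreated dental mesenchyme from the incisors of wild-type C57BL/6 mice aged 4 weeks. ATAC-seq reads out where a transposase can insert adapters into accessible DNA. It gave 1 value per region for the 4 lanes together, so the data describe 1 library without replicate error. Intervals below are 95% intervals that cover counting error only, and reads copied by PCR are not independent molecules. A bulk library cannot tell apart a region that is open in more cells from one that is cut more often per cell.

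Sequence just upstream of a gene often holds proximal enhancers, boundary elements bound by CTCF, and the start sites of alternative or noncoding transcripts. A core promoter is bound by the general transcription machinery and is open in many cell types, while upstream elements are more often bound by factors of 1 lineage. The mouse incisor grows throughout life. Its mesenchyme, which derives from cranial neural crest, renews the odontoblasts that make dentin and the fibroblasts of the pulp, and homeobox factors of the Msx, Dlx, Pax and Lhx families pattern it.

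The label of the tissue was read against promoter regions, defined as regions with a midpoint within 1 kb of a protein-coding TSS. A promoter region was listed for 29 of 30 transcription factors of dental mesenchyme, with a median of 51 reads in the strongest one, against a median of 22 over all genes with genes lacking a region set to 0. Over all genes it was listed for 14009 of 21827. Among lists of other cells it was listed for 10 of 11 pericyte and smooth muscle genes, 11 of 14 endothelial, 8 of 10 chondrocyte, 7 of 10 neuronal, 6 of 10 Schwann cell and 9 of 16 dental epithelium genes. The counts were 5 of 12 for skeletal muscle, 3 of 10 for erythroid cells, 3 of 20 for leukocytes, 2 of 11 for liver and 11 of 39 for Hox genes. A region from a mitochondrial-like sequence, described below, took 2837 of the upstream reads.

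Sequences of 10 upstream regions, picked from the genes named below, are shown as examples. They are the central 200 bases of each region in the GRCm38 reference from RefSeq, the same build as mm10, written 5′ to 3′ on the strand of the gene, and capitals mark exact matches to any of 26 motifs searched on both strands. The set of the Msx2, Dlx2 and Sp6 genes, all transcription factors of tooth development, shows homeobox matches. A core homeobox match is TAATTA or TAATTG, a PITX and OTX match is TAATCC, a TEAD match is CATTCC, an SP and KLF match is GGGCGG, and CAGATG is an E-box. Among the 200-base windows of all regions, TAATTA was found in 8.83%, TAATTG in 9.05%, TAATCC in 4.90%, CATTCC in 12.5%, GGGCGG in 14.3% and CAGATG in 16%.
Msx2, chr13:53476065-53476264, minus strand: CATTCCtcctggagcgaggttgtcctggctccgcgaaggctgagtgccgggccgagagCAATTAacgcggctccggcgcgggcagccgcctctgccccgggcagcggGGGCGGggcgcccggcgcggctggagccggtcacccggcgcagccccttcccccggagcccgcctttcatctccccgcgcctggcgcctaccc
Dlx2, chr2:71548077-71548276, minus strand: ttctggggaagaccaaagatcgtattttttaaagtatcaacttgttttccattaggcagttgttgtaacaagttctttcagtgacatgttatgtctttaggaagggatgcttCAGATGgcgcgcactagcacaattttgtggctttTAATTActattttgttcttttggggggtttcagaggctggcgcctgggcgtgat
Sp6, chr11:97011296-97011495, plus strand: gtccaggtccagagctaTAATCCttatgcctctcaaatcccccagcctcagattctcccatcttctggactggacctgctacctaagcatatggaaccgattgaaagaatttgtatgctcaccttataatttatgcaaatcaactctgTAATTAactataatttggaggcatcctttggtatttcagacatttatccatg

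The next set held more reads than the promoter region of the same gene. Sp7 (osterix) is a transcription factor of osteoblasts and odontoblasts, Col1a1 codes for the main collagen chain of bone and dentin, Cxcl12 for a chemokine of stromal cells, and Nr4a3 for an inducible nuclear receptor. The capitals in the Cxcl12 window are a nuclear receptor match (AGGTCA on the other strand), and those in the Nr4a3 window are a YY1 match (AAGATGGC) and a MEF2 match, which were found in 10.3%, 1.25% and 0.609% of the windows of all regions.
Sp7, chr15:102370810-102371009, minus strand: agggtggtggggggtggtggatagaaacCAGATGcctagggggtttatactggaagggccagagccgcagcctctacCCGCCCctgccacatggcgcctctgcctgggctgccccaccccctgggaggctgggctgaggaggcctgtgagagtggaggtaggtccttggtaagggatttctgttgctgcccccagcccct
Col1a1, chr11:94934525-94934724, plus strand: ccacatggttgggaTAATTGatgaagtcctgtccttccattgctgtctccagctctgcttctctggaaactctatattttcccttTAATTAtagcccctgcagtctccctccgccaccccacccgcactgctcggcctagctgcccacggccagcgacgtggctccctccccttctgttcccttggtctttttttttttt
Cxcl12, chr6:117167100-117167299, plus strand: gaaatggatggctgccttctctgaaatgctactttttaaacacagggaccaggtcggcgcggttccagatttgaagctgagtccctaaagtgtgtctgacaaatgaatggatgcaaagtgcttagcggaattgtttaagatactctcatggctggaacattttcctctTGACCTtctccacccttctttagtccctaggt
Nr4a3, chr4:48043113-48043312, plus strand: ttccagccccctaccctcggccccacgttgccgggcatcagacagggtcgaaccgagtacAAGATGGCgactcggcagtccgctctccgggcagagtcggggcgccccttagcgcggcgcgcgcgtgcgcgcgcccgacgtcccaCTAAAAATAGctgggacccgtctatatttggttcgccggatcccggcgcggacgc

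The last set holds the region of Id1, a target of BMP signalling, with a CREB match (TGACGTCA), an E-box (CAGGTG), a TEAD match and a pair of GC boxes, and the regions with a CTCF match of Nog, a secreted BMP antagonist, and of Wnt10a, a Wnt ligand of the odontoblast layer. TGACGTCA was found in 0.415% of the windows of all regions and CAGGTG in 10.2%.
Id1, chr2:152735011-152735210, plus strand: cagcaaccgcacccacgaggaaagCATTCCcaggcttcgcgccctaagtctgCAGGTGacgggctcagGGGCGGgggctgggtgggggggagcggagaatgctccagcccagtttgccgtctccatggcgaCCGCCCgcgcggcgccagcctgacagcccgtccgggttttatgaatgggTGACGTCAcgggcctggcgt
Nog, chr11:89303494-89303693, minus strand: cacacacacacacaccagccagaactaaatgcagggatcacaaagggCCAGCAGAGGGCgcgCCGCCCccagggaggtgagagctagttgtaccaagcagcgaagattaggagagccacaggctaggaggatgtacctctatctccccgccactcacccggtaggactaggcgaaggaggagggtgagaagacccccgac
Wnt10a, chr1:74787946-74788145, plus strand: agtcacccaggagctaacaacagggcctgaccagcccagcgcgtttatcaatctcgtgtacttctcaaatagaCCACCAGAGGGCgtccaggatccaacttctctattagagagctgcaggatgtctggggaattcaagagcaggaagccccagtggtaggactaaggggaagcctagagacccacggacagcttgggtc

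Upstream regions were smaller than promoter regions and larger than the other regions outside promoters. Their median was 9 reads (95% interval 8 to 10, quartiles 4 and 19), against 14 for the 24433 promoter regions, 7 for the 4083 regions 1 to 5 kb downstream inside a gene body, and 6 for the 26867 regions over 50 kb from any protein-coding TSS and outside gene bodies. At least 10 reads were found in 1058 upstream regions (48.1%, 46.0 to 50.3), against 41.2% of downstream regions, 33.2% of the distant ones and 34.7% of all regions outside promoters. At least 50 reads were found in 150 (6.82%), and at least 100 in 52 (2.37%), while 30.0% and 15.8% of promoter regions reached these levels. No read was found in 96 upstream regions (4.37%), against 5.84% of all regions. Upstream regions were also narrower. The median upstream region spanned 237.5 bp and the median promoter region 381 bp, and per kb of region the medians were 36.5 and 39.3 reads, against 28.4 downstream and 22.5 far away. Reads of upstream regions followed their width (Spearman's rho 0.658 across 2198 regions of 1 library) and had next to no relation to their distance from the TSS (rho -0.02).

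**Figure D1:**
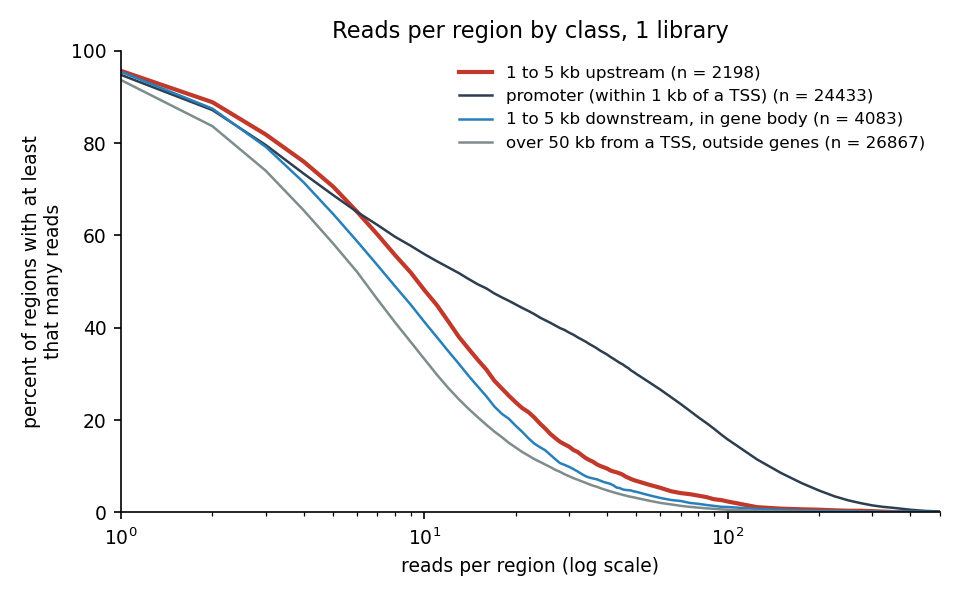
Percent of regions with at least the number of reads on the horizontal axis (log scale), for upstream, promoter, downstream and distant regions of the 1 library. At 10 or more reads the upstream curve (48.1%) lies above the downstream (41.2%) and distant (33.2%) curves. From 350 reads on, where 2 upstream regions remain, it lies below the downstream curve. It lies below the promoter curve from 7 reads on (60.2% against 62.3% there).

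Reads were concentrated in few of the regions. The 10 largest held 13.5% of the upstream reads and the 100 largest held 36.4%. The largest by far lay 3634 bases upstream of Slc25a54, a mitochondrial carrier gene, at chr3:109076740-109076931, and held 2837 reads in 192 bp, or 6.94% of all upstream reads. It was the only member that matched the mitochondrial genome (195 aligned bases at 84.6% identity by blastn). How many of its reads came from mitochondrial DNA was not tested. Without it, upstream regions held 38015 reads, 1.65% of the reads in regions, and the largest had 364.

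That next region, at chr17:62882485-62883489, lay 1.67 kb upstream of Efna5, an ephrin ligand of Eph receptors, and its 364 reads (328 to 403) compared with 60 in the promoter region, which it abuts. Zbtb18, a zinc finger repressor, had 330 reads 2.38 kb upstream and no promoter region under the midpoint rule, and a RefSeq and a GENCODE comprehensive start site of Zbtb18 lay 437 bases from the region's midpoint. Nr4a3 had 327 reads (293 to 364) at chr4:48042740-48043685, 1.94 kb upstream. Marcks, a substrate of protein kinase C, had 317 reads, and the long noncoding RNA 5930403N24Rik starts 35 bases from that midpoint on the other strand. The remaining regions among the 10 largest belonged to Zfp692 (311 reads), Zc3h4 (286), Igf1r (282), Spaca6 (239) and Cpeb4 (229). Igf1r, the receptor of insulin-like growth factors, had its region of 1797 bp at chr7:67950807-67952603, and a curated RefSeq start site of the gene lay 552 bases from its midpoint, so this region holds sequence near a promoter in that catalogue. The basic annotation sets no start site there. Of these 10 regions, Slc25a54, Nr4a3 and Efna5 had no start site of either catalogue within 1 kb of the midpoint.

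More widely, 501 upstream regions (22.8%, 21.1 to 24.6) lay within 1 kb of some other start site in GENCODE comprehensive or RefSeq, and they held 31.0% of the upstream reads. In the distant regions the share was 8.10%. Most of these sites were predicted RefSeq transcripts (323 regions), followed by long noncoding RNA genes (107), curated RefSeq mRNAs (80) and curated RefSeq noncoding RNAs (69), with regions counted in each kind they meet. The share grew with the reads, from 21.0% of regions under 10 reads to 43.3% (35.3 to 51.7) of those with at least 50 and 51.9% (37.6 to 66.0) of those with at least 100. The median of the 1697 regions without such a site was still 9 reads, against 11 for the 501.

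Large upstream regions were mostly CpG rich. Regions of at least 200 bp, 50% GC and a CpG ratio of 0.6 (observed to expected), called CpG rich here, made up 229 of the upstream regions (10.4%, 9.17 to 11.8). The share was 54.6% of promoter regions, 16% of downstream regions and 1.53% of distant ones. CpG-rich upstream regions had a median of 29 reads and the rest 8. Regions under 200 bp count among the rest whatever their sequence, and reads followed width. Neither these medians nor the shares by class were compared at equal width. The 122 that were CpG rich with no other start site had a median of 28.5 (22 to 34), close to the 31 (22 to 46) of the 107 that had one. The 394 with a start site that were not called CpG rich had 7. Of the 52 regions with at least 100 reads, 39 were CpG rich and 45 were CpG rich or near another start site. Repeat sequence covered most of 61 regions (2.78%), which had a median of 4 reads.

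Regions became rarer over the first part of the window and then stayed level. Counted against the sequence outside gene bodies for which that TSS is the nearest, there were 380 regions per Mb in the 1 kb before the TSS, 54.4 (49.5 to 59.7) from 1 to 1.5 kb, and 32.6 (30.9 to 34.3) from 2 to 5 kb. From 5 to 10 kb upstream the density was higher again, at 44.8 (43.1 to 46.5), and the ratio of the density at 2 to 5 kb to that at 5 to 10 kb was 0.728 (0.682 to 0.776). The difference was greater in the small regions. Those under 10 reads numbered 17.0 per Mb (15.8 to 18.3) at 2 to 5 kb and 27.6 (26.3 to 28.9) at 5 to 10 kb, while those of at least 10 reads numbered 15.6 (14.5 to 16.8) and 17.2 (16.2 to 18.3), a ratio of 0.905 (0.821 to 0.997). Inside gene bodies the density at the same distances downstream was higher near the TSS, with 75.1 per Mb at 1 to 2 kb against 45.8 upstream, and 48.1 over 1 to 5 kb against 36.1.

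**Figure D2:**
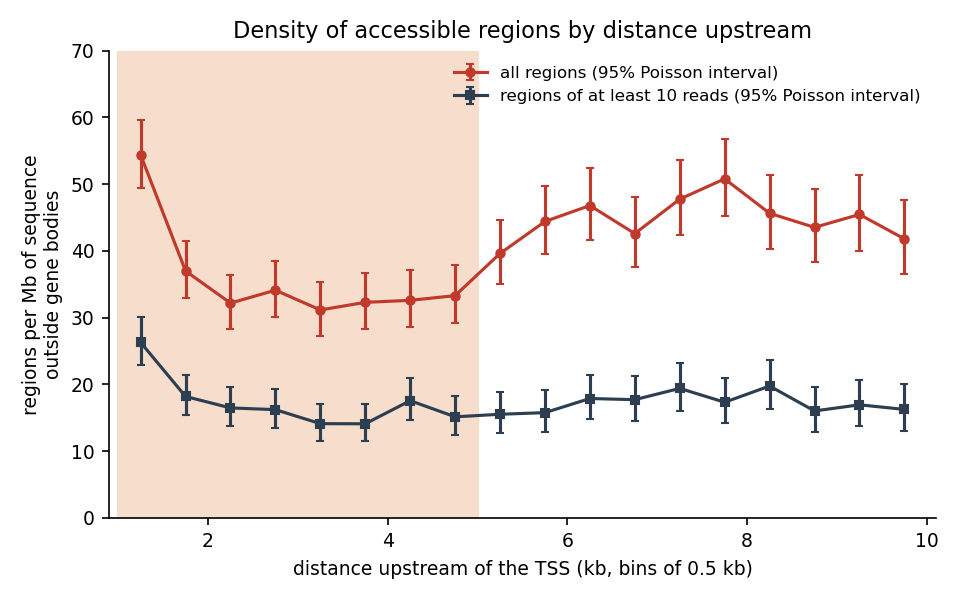
Regions per Mb of sequence outside gene bodies (vertical axis) in bins of 0.5 kb by distance upstream of the TSS (horizontal axis, kb), for all regions and for those of at least 10 reads, with exact 95% Poisson intervals; shading marks 1 to 5 kb. All regions dip between 2 and 5 kb and are denser beyond 5 kb, and regions of at least 10 reads are close to level after 2 kb.

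The bounds of the rule cut through a continuous field of regions. In the 100 bases just short of 1 kb there were 173 regions with a median of 8 reads, counted without leaving out gene bodies. In the 100 bases just past it, outside gene bodies, there were 102 with a median of 9, so these counts are not directly comparable. In the last 100 bases before 5 kb there were 47 with a median of 12, and in the 100 bases beyond it 44 with a median of 6.5. No member spanned a protein-coding TSS of the basic set, 148 reached within 1 kb of one, 94 abutted a promoter region, and 1982 lay wholly in the window. By chromosome, leaving out Y, members were 1.22% (chromosome 18) to 2.82% (chromosome 11) of the listed regions.

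The upstream regions were then compared with the promoter region of the same gene, taken as the one with most reads. For 1542 members (70.2%) the gene had a promoter region, and there the median was 9 reads upstream and 41 in the promoter region. The median log2 ratio of upstream to promoter reads, with 0.5 reads added to both, was -1.98 (-2.12 to -1.82), against -2.41 for downstream regions, -3.73 for distant ones and -3.34 for all 81856 regions outside promoters paired with the promoter region of the gene with the nearest TSS. At least 2-fold fewer reads than the promoter region, with 10 or more in the latter, were found in 993 members (64.4%, 61.9 to 66.8), where 82.6% of all regions outside promoters met this rule. At least 2-fold more reads, with 10 or more upstream, were found in 117 members (7.59%, 6.32 to 9.02), where 3.26% of all regions outside promoters did. Set against the promoter region nearest to the TSS used instead of the strongest, the share was 12.8%, with 7.51% of all regions outside promoters. Reads of the pair were weakly related (Spearman's rho 0.172 across 1542 pairs that share 1 library).

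**Figure D3:**
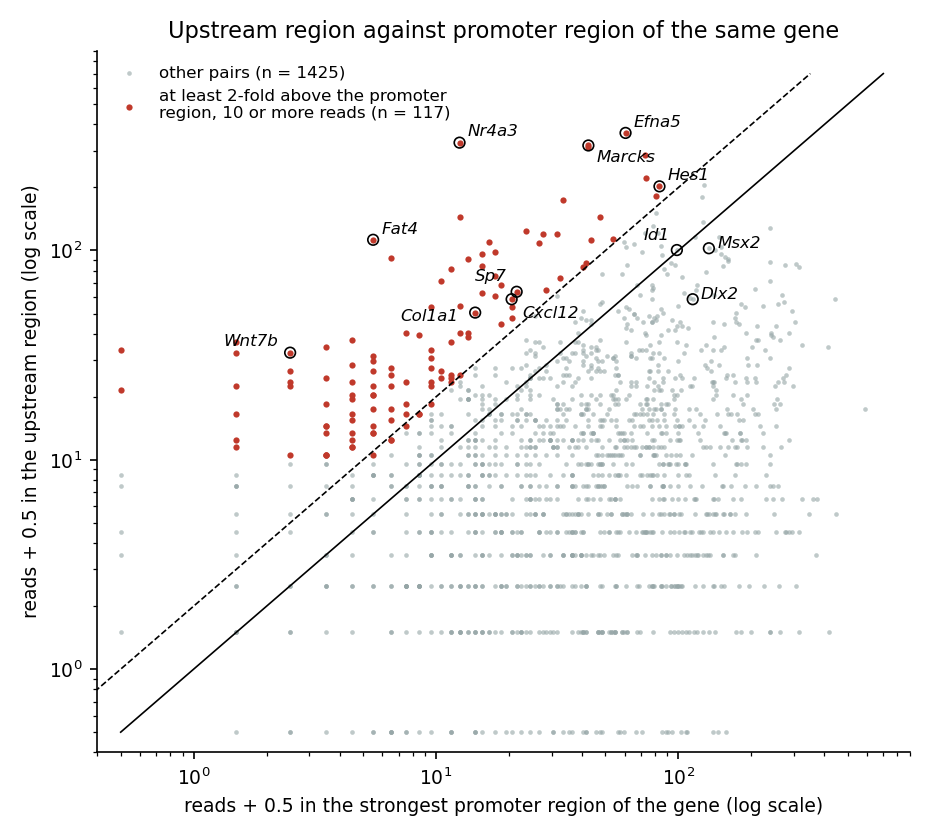
Reads of each upstream region (vertical axis) against reads of the strongest promoter region of its gene (horizontal axis), both plus 0.5 on log scales, for 1542 pairs; the solid line marks equal reads and the dashed line 2-fold more upstream. Red points are the 117 pairs at least 2-fold above the promoter region, and circles mark 12 named genes, among them Nr4a3, Fat4, Sp7, Col1a1 and Cxcl12 above the dashed line and Msx2 and Dlx2 below the solid line.

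The 117 regions belonged to 112 genes and had a median of 28 reads against 8 in the promoter regions. They were CpG rich in 40 cases (34.2%, 25.7 to 43.5) and near another start site in 45 (38.5%, 29.6 to 47.9), against 9.68% and 22.9% of the other 1425 pairs, and 55 of the 117 were neither. The rule fixes which median is larger, and it asks for 10 reads of the 117 but not of the other pairs. Both traits were more frequent among larger regions, so these shares were not compared at equal reads. The share of members that met the 2-fold rule depended on the reads of the promoter region. Among genes whose promoter region had under 10 reads, 31.3% of upstream regions (25.2 to 38.0) met it, close to the 26.9% of all regions outside promoters. At 10 to 49 promoter reads the shares were 6.51% (4.75 to 8.66) and 3.56%, and at 50 to 99 they were 1.65% (0.607 to 3.55) and 0.283%. None of 300 upstream regions met it where the promoter region had 100 or more reads, which allows a share of up to 1.22%. Meeting it there took at least 200 upstream reads, which 0.591% of all upstream regions held, so this absence says little about the 300.

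The largest ratios among regions of at least 20 reads came from genes whose promoter region was nearly empty. Lgi1, a secreted synaptic protein, had 36 reads 4.06 kb upstream against 1 read (ratio 36.0, counting interval 6.06 to 1461). Klhl31, a kelch protein of muscle, had 32 against 1, and Jph2, a junctophilin of heart muscle, had 22 against 1. Trpa1, an ion channel of sensory neurons, had 33 reads and Fam181a had 21, and both had a promoter region listed at 0 reads, so that the ratio was at least 11-fold and at least 7-fold with a floor of 3 reads. Wnt7b, a Wnt ligand of epithelia, had 32 against 2 at a midpoint just inside the inner bound of 1 kb.

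Better supported ratios came from larger counts. Nr4a3 had 327 reads upstream against 12 (6.2 to 21) in the promoter region, a ratio of 27.2 (15.4 to 53.3), and its upstream region was CpG rich with no other start site within 1 kb. Fat4, a giant cadherin, had 112 reads against 5 (ratio 22.4, 9.32 to 70.3) in a region that abuts the promoter region. Mos, a kinase of oocytes, had 92 against 6. Nemf had 144 against 12, and the small RNA gene Rn7s2 starts 46 bases from the midpoint. These regions were all CpG rich.

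For 656 members at 519 genes no promoter region was listed. Their median was 8 reads, close to the 9 of the members with a promoter region, and 39 had at least 50 reads. The 5 largest were those of Slc25a54, Zbtb18, Igf1r, Spaca6 and Cpeb4 named above, and all but Slc25a54 had a start site in another catalogue within 1 kb. Egr3, an early growth response factor, had 108 reads 2.37 kb upstream, without a promoter region and without another start site.

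Among genes with a promoter region, the share with an upstream region was lower where the promoter region held more reads. These are shares of genes, not corrected for how much sequence each gene had in the window outside gene bodies. Of 14022 genes with a promoter region, 8.55% (8.09 to 9.03) had an upstream region, against 6.63% (6.09 to 7.20) of 7829 genes without. By reads of the promoter region the share was 12.6% (10.9 to 14.4) under 10 reads, 10.9% at 10 to 49, 7.75% at 50 to 99, 5.51% from 100 to below 200 and 5.21% (4.08 to 6.55) at 200 or more. For upstream regions of at least 10 reads this order did not hold throughout. The shares were 5.53% (4.39 to 6.87) under 10 promoter reads, 6.02% at 10 to 49, 5.41% at 50 to 99, 3.50% (2.87 to 4.22) from 100 to below 200 and 3.78% (2.82 to 4.95) at 200 or more, and 3.33% (2.95 to 3.76) for genes without a promoter region. Where there was an upstream region, the median of the strongest was 8 reads at the weakest promoters and 23 at the strongest.

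Most genes with members had 1 region (1334 genes), 306 had 2, 63 had 3, 12 had 4 and 3 had 5. Tbx2, a T-box repressor, had 5 regions of 1 to 14 reads before a promoter region of 126 reads. Cox8b, a subunit of cytochrome c oxidase in muscle, had 5 with 69 and 25 reads in the larger ones and no promoter region, and Nme9 had 5 with up to 41 reads. Ssbp4 had 4, with 153 and 107 reads in CpG-rich sequence, and Spaca6 had 4, of which the largest held 239.

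Genes were grouped by 24 lists of lineages and pathways, with 25 of 453 genes in more than 1 list. Among all protein-coding genes 7.87% had an upstream region and 4.44% had one of at least 10 reads. In the list of dental mesenchyme transcription factors 11 of 30 had one (36.7%, exact binomial interval 19.9 to 56.1), and 9 had one of at least 10 reads. Per Mb of window sequence the list had 160 regions (91.3 to 259), against 36.2 (34.7 to 37.7) over all genes. The strongest upstream region of the 11 genes had a median of 27 reads, against 11 for all genes with one.

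**Figure D4:**
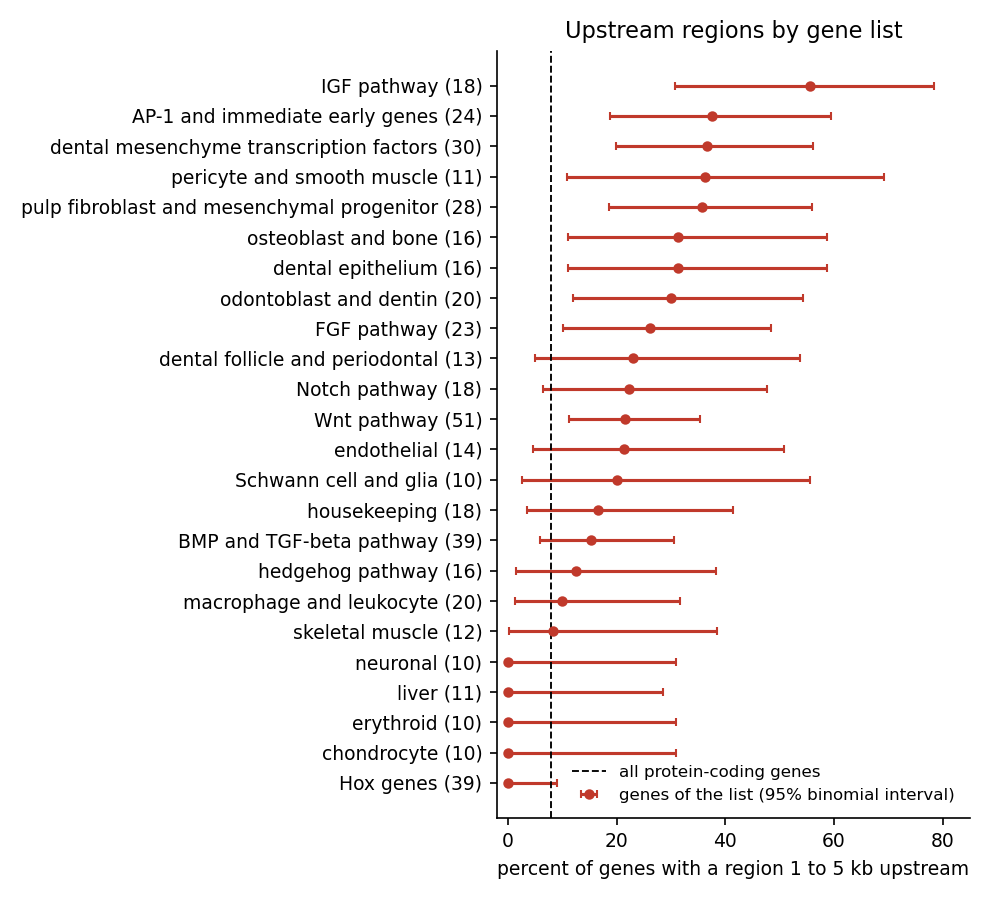
Percent of genes in each list with a region 1 to 5 kb upstream (horizontal axis), with exact 95% binomial intervals and the number of genes in parentheses; the dashed line marks all protein-coding genes at 7.87%. The IGF pathway lies furthest right at 55.6%, immediate early genes, dental mesenchyme factors, pericyte and smooth muscle genes and progenitor genes lie between 35.7% and 37.5%, osteoblast and dental epithelium genes are at 31.3%, and Hox, chondrocyte, erythroid, liver and neuronal lists are at 0.

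Msx2, which acts in the tooth mesenchyme downstream of BMP signals, had 102 reads (83.2 to 124) at chr13:53475922-53476406, 3.09 kb upstream, and 133 (111 to 158) in its promoter region. Per kb these were 210 and 228 reads. Its sequence above is CpG rich at 76.5% GC in the central 200 bases. Dlx2 had 58 reads 1.42 kb upstream against 114, and its window had 41.5% GC and a TAATTA match. Dlx5 had 45 reads 3.0 kb upstream against 138. Osr2 had 31 against 50, Prrx2 had 27 against 14 (ratio 1.93, 0.976 to 3.98), and Lhx8 had 26 against 25. Pax9, chosen after its values were seen, had 29 against 99, and so was Dlx3, with 19 and 8 reads in 2 regions against 56. Msx1, the partner of Msx2 in the tooth mesenchyme, had no upstream region, with 150 reads in its promoter region.

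In the lists of matrix-forming cells, several genes had the larger signal upstream. The odontoblast list had 6 of 20 genes with an upstream region (30.0%, 11.9 to 54.3), the osteoblast list 5 of 16 (31.3%, 11 to 58.7), and in both lists 4 of those genes had more reads upstream than in the promoter region, a gene without a promoter region counting as 0. These are largely the same genes: Sp7, Col1a1 and Spp1 are in both lists, with Wnt10a in the first and Sost in the second. Spp1 and Sost, named after their values were seen, had 8 and 6 reads upstream and, like Wnt10a, no promoter region. Over all genes with an upstream region this held for 733 of 1718. Sp7 had 63 reads (48.4 to 80.6) at chr15:102370681-102371137, 3.94 kb upstream, against 21 (13.0 to 32.1), a ratio of 3.0 (1.81 to 5.18). Col1a1 had 50 reads (37.1 to 65.9) at chr11:94934486-94934762, 1.60 kb upstream, against 14 (7.65 to 23.5), a ratio of 3.57 (1.94 to 7.0). Per kb these were 138 against 40.2 and 181 against 78.2. The Col1a1 window holds a TAATTG and a TAATTA match, and a predicted noncoding transcript starts 8 bases from the midpoint. Further regions of Col1a1 had 10 and 3 reads.

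Sparc, a glycoprotein of bone matrix, went the other way with 41 reads 2.02 kb upstream against 90. Sp6, a factor of tooth epithelium and odontoblasts, had 2 abutting regions of 31 reads each against 63. Wnt10a had 19 and 15 reads in 2 upstream regions and no promoter region, and the smaller one carries the CTCF match shown above. Dmp1, a matrix protein of odontoblasts and osteocytes, had 8 and 4 reads against 9. Dspp, which codes for dentin sialophosphoprotein, and Runx2, the master factor of osteoblasts, had no upstream region, with 10 and 24 reads in their strongest promoter regions.

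In the list of pulp fibroblasts and progenitors 10 of 28 genes had an upstream region. Cxcl12 had 58 reads (44.0 to 75.0) at chr6:117166939-117167459, 1.34 kb upstream, against 20 (12.2 to 30.9), a ratio of 2.90 (1.72 to 5.09). Pdgfra, a receptor of mesenchymal cells, had 24 reads 2.17 kb upstream against 24, with smaller regions of 8 and 5 reads. Prrx1 had 15 against 25, and Col12a1 had 16 against 44, both within 1 kb of a predicted start site of the gene. Gli1, a marker of incisor stem cells and a readout of hedgehog signalling, had no upstream region and 28 promoter reads. The follicle list had 3 of 13 genes, and the chondrocyte list 0 of 10, where the window sequence allowed up to 132 regions per Mb.

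Among signalling pathways the IGF list stood highest, with 10 of 18 genes (55.6%, 30.8 to 78.5) and 219 regions per Mb (120 to 367). Of the 18, 7 had a region of at least 10 reads (38.9%, 17.3 to 64.3), against 4.44% of all genes. The only upstream region of Igfbp1, named after its values were seen, held 0 reads. The binding proteins, which hold IGF ligands outside the cell, had modest regions. Igfbp3 had 13 reads 2.06 kb upstream against 58, and a predicted start site lay 483 bases away. Igfbp5 had 19, 5 and 4 reads in 3 regions against 17. The ligand Igf1 had 10 and 5 reads against 52, and the kinase Akt1 had 23 against 7, with a curated start site of the gene 444 bases from that midpoint. The receptor Igf1r carried the largest region of the list, with 282 reads.

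For BMP and TGF-beta, 6 of 39 genes had an upstream region. The Id genes code for inhibitors of bHLH factors and are direct targets of BMP signalling, and 3 of the 4 had an upstream region. Id4, named after its values were seen, had none, with 177 promoter reads. The 4 larger regions of Id1, Id2 and Id3 were CpG rich, and a further one of Id3 held 2 reads. Id1 had 100 reads (81.4 to 122) at chr2:152734888-152735332, 1.14 kb upstream, against 98 (79.6 to 119), a ratio of 1.02 (0.765 to 1.36). Id3 had 96 reads 2.92 kb upstream against 149, and Id2 had 91 and 89 reads at 1.68 and 3.83 kb against 159. Per kb Id1 had 225 against 224 and Id3 had 225 against 222. No other start site lay within 1 kb of the 4 larger regions. The antagonist Nog had 19 reads against 73, and the ligand Gdf5 had 10 against 8.

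In the FGF list 6 of 23 genes had a region, each of at least 10 reads, and the largest were at some of the feedback inhibitors. Spred2 had 93 reads against 155, Spry2 had 88 against 239, and Dusp6, a phosphatase of ERK, had 84 against 152. Of the same families, Spred1 had 17 against 253, and Spry1 and Spry4 had no upstream region, all named after their values were seen. In the Notch list the target Hes1 had 202 reads (175 to 232) 1.31 kb upstream against 83, a ratio of 2.43 (1.88 to 3.18), although per kb the order was the other way, with 246 against 310. A noncoding transcript of Hes1 in GENCODE comprehensive starts 351 bases from that midpoint. The ligand Dll1 had 18 against 88, and Numb had 15 against 128. The Wnt list had 11 of 51 genes, among them Lef1, a nuclear effector, with 29 and 15 reads against 31, and the ligand Wnt2 with 30 against 9. In the hedgehog list 2 of 16 had one, with 43 reads at the co-receptor Gas1 against 251 and 10 at the ligand Shh, which had no promoter region.

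Immediate early genes, which respond to stimuli within minutes, had upstream regions in 9 of 24 cases (37.5%, 18.8 to 59.4). Nr4a3 and Egr3 were given above. Ier2 had 73 reads 1.28 kb upstream against 32, a ratio of 2.28 (1.49 to 3.57), in a region with an ETS match, and the long noncoding RNA Gm26664 starts 991 bases from its midpoint. Junb, Myc and Fos, chosen after their values were seen, had 61 against 69, 43 against 211 and 16 against 66 in their strongest regions.

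Lists of markers of other cells differed in how often their genes had an upstream region. Per Mb of window sequence there were 136 regions (44.1 to 317) in the pericyte and smooth muscle list. The epithelial list had 117 (47.0 to 241) and the endothelial list 101 (32.6 to 235), with intervals that overlap the 160 (91.3 to 259) of dental mesenchyme factors. The Schwann cell and leukocyte lists had 55.6 and 33.2, against 36.2 over all genes. The leukocyte list had 2 of 20 genes, Aif1 with 16 reads and Cx3cr1 with 11. The endothelial list had 3 of 14, led by Sox18 with 22 reads against 23, and the Schwann cell list 2 of 10. In the epithelial list 5 of 16 genes had one, but only Krt5, a keratin of basal epithelium, reached 10 reads, with 18 and 9 against 3 in the promoter region. Pericyte and smooth muscle genes had one in 4 of 11 cases, led by Mcam with 24 against 3. No gene of the erythroid (10), liver (11) or neuronal (10) lists had any, and neither did any of 39 Hox genes, of which 29 had window sequence. The window sequence allowed up to 126, 99.1, 116 and 49.6 regions per Mb in these lists, in that order. Each limit lies above the 36.2 per Mb of all genes. In the housekeeping list 3 of 18 genes had an upstream region.

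The sequences of upstream regions differed from flanking sequence most in matches to CTCF, the boundary and loop-anchoring protein. A match to its 12-base consensus was found in the central 200 bases of 143 upstream regions (6.51%, 5.51 to 7.62), against 3 of 2139 windows (0.140%) taken 2 kb further upstream and free of regions, 2.63% of all regions, 1.93% of distant ones and 0.54% of promoter regions. The ratio to the flank was 46.4 (14.8 to 145) and to promoter regions 12 (9.54 to 15.2). With a flank 1 kb away the ratio was 19.4. Median GC was 51.5% in the upstream windows and 45.5% in the flank.

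The share with a CTCF match was 4.81% (3.39 to 6.6) at 1 to 2 kb, 6.58% at 2 to 3 kb, 8.09% at 3 to 4 kb and 7.56% (5.32 to 10.4) at 4 to 5 kb. The match lay on the strand of the gene in 68 of 143 regions (47.6%, 39.1 to 56.1) and in repeat sequence in 12. Regions with a match were of middling size, with a median of 11 reads against 9 for the rest and none above 60, and only 4 were CpG rich. The largest, chosen after their values were seen, were those of Crb2 (60 reads), Psmf1 (51), Ago2 (50), and Myc (43 reads, 1.91 kb upstream).

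Matches to the GC box of SP and KLF factors were found in 14.9% of upstream regions, 4.55 times (3.54 to 5.84) the 3.27% of the flank and well under the 43.7% of promoter regions. This was close to the 14.3% of all regions (ratio 1.04, 0.944 to 1.15). Regions with a GC box had a median of 15 reads and those without 8. The palindromic homeobox site TAATTA was found in 7.64%, 1.60 times (1.26 to 2.04) the flank and 5.78 times (4.82 to 6.93) the share in promoter regions, but it was rarer than in distant regions (12.1%). In regions of at least 10 reads its ratio to the flank was 2.0 (1.41 to 2.84). The NFI site TTGGCA stood at 12.5% against 8.74%, the FOX site TGTTTAC at 3.87% against 2.57%, and the E-box CACGTG at 3.91% against 2.24%. In the windows of all regions these shares were 12.8%, 4.29% and 3.17%.

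Several lineage motifs were no more frequent than in the flank. RUNX (TGTGGT) was found in 16.7% against 15.9% (ratio 1.05, 0.918 to 1.2), AP-1 (TGANTCA) in 6.69% against 6.12% (1.09, 0.870 to 1.37), and the E-box CAGATG in 14.7% against 15.7%. TAATCC, the PITX and OTX site, was less frequent at 5.10% against 8.74%, as was the TCF and LEF site CTTTGAT at 1.96% against 3.93%. Over all regions RUNX stood at 16.2%, AP-1 at 6.66% and CTTTGAT at 2.72%. CREB and ETS (CCGGAAGT, 0.76% of all regions) matches were rare, with 10 regions each, and these had medians of 54.5 and 27.5 reads. An exact match describes letters and not binding, and base composition was not matched between the sets.

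**Figure D5:**
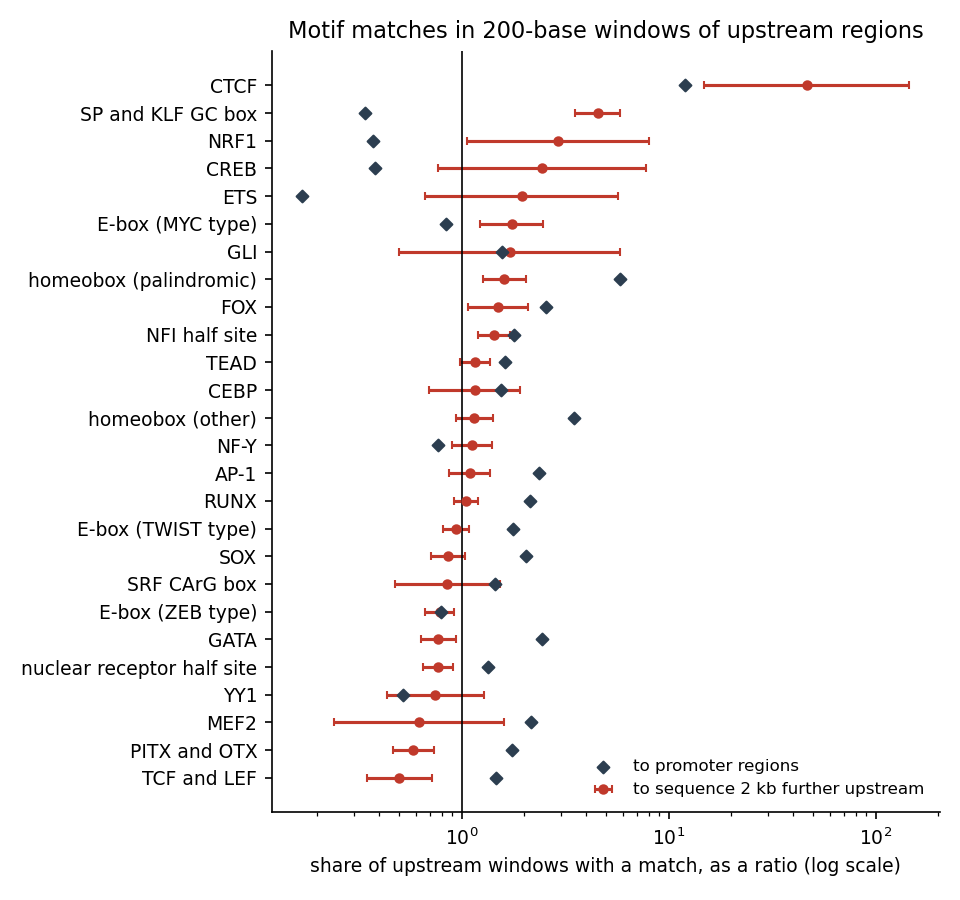
Share of upstream 200-base windows with a motif match as a ratio (horizontal axis, log scale) to windows 2 kb further upstream (circles with 95% intervals from a log-normal approximation) and to promoter regions (diamonds), for 26 motifs; the homeobox and E-box names stand for the 5 sites given in the text, palindromic being the site with equal letters on both strands. CTCF lies at 46.4 against the flank and 12 against promoters, and the GC box above the flank and below promoters.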

How the data were processed

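Wild-type incisor mesenchyme was measured by ATAC-seq in 4 lanes of 1 library. Per the labels' protocols, paired reads came from a NextSeq500, BWA-MEM placed them on mm10, MACS2 called the peaks and HOMER annotated them. STAR 2.6.1d and Partek also appear in the submitters' processing notes, with no role stated. The transposase shift, duplicate and mitochondrial read removal, the libraries behind the peak calls and whether a count is a read or a fragment are not given in the sources used here. Duplicates that remained would inflate single regions.

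The authors deposited CPM values for 121574 regions, computed on reads plus 1. Dividing by the smallest value (0.0484 CPM) gave whole numbers within 0.01 in 99.9% of regions (84 exceptions, 5 of them upstream), and reads are that number minus 1, rounded. The total was 2297894 reads. A further deposited table, with 1 row for the 4 lanes together, and 1 column of values without a sample were not used.

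Regions were placed by midpoint on GENCODE vM21 basic with Python 3 scripts (pandas, scipy) tested on simulated regions, and mitochondrial matches were sought with blastn (e-value 1e-10). Medians carry order-statistic intervals, and shares and counts exact binomial and Poisson intervals, at 95%, and ratios of motif shares a log-normal approximation. No test between samples was possible. Named genes were the 10 largest regions, the 10 largest ratios at 20 or more reads, the 5 genes with most regions, the 5 largest without a promoter region, the top 3 or 6 of each of 24 gene lists, and Msx1, Msx2, Runx2, Gli1, Dspp, Col1a1 and Igfbp3. The members, lists, motifs and named genes were chosen with earlier results of these data known.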

Additional observations from a re-analysis of the deposited data

How the results depend on the processing

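No paired analysis was possible because all 4 lanes belong to 1 group and share 1 value column, and leaving out each lane was not run for the same reason. Only regions of at least 10 reads gave 1058 upstream regions, a median of 19 reads, a median log2 ratio of -1.17, 5.0% of genes with a promoter region also having an upstream region, 17.4 regions per Mb, a ratio of 0.905 (0.821 to 0.997) between the densities at 2 to 5 and 5 to 10 kb, and shares of genes with an upstream region of 4.44% over all genes, 6.25% in the epithelial list and 0 in the skeletal muscle list. Reads per kb gave a median of 36.5 and a log2 ratio of -0.92. The log2 ratio was -2.20 against the sum of promoter regions, -1.61 against the promoter region nearest to the TSS used (where 12.8% of members were at least 2-fold above it) and -0.74 with genes lacking a promoter region at 0. The share of genes with a promoter region that also had an upstream region was 7.59% with the whole region in the window, 7.97% without regions at noncoding TSSs and 7.94% without those within 300 bp of a promoter region. Leaving out members within 1 kb of another start site, chosen after seeing the data, gave 6.15% at least 2-fold above the promoter region. Without correction for gene bodies there were 25.8 regions per Mb. The other alternatives stayed within the intervals of the reported values, counts within 1.5 times, and the log2 ratio was negative in each. With a median of 9 reads, ratios of single small regions have wide intervals.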
